A study of Mus musculus with 25 samples.

Results

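Which RNAs of the mature egg are still there in the morula, and which have gone, was read from 8 mouse libraries of strain C57BL/6. Per the labels, 4 libraries came from metaphase II (MII) oocytes, eggs that were matured in culture for 16 h and had released the first polar body, and 4 came from morulae, embryos of blastomeres that press together before the blastocyst cavity forms, grown in culture after an in vitro fertilization of 6 h. All 8 belonged to the control arm, in which the culture medium held PBS, a buffered salt solution, in place of the tested small molecule, written as VCD. The series holds 25 libraries in 6 groups, 3 stages with PBS or VCD, and the 4 libraries of 2-cell embryos with PBS are used below as an intermediate time point. Genes were taken into the comparison at 1 FPKM or more (fragments per kilobase of transcript, scaled to the counted fragments of the library) in at least 4 of the 8 libraries, which held for 11444 of the 35561 genes listed in the deposited tables. The sources used here do not say how many oocytes or embryos were pooled per library or if replicates had independent origins, so p-values reflect variation among these libraries alone, which may be technical.

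A fully grown mouse oocyte stops transcribing and lives on RNA it has stored. After fertilization the embryo clears much of this maternal RNA in steps, first by proteins the egg itself supplies and later with help from newly made factors, while its own genome is switched on, weakly in the zygote and broadly at the 2-cell stage. By the morula the first cell contacts, polarity and lineage choices are under way, and the RNA is largely the embryo's own. A gene at a similar level in both stages can therefore hold stored RNA that was never cleared, or RNA that was cleared and made again, and an intermediate stage is needed to see a difference between these courses.

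The libraries were alike in depth. The steps of the FPKM values corresponded to 16901452 to 18957292 counted reads or fragments in the MII libraries and 17230504 to 20998055 in the morula libraries, at which 1 read in a gene of 1 kb is worth 0.0476 to 0.0592 FPKM. Over the tested genes on the log2(FPKM + 1) scale, library pairs within MII correlated at r of 0.993 to 0.994, pairs within morulae at 0.961 to 0.984, and pairs across the stages at 0.115 to 0.15. The median SD of a gene was 0.118 log2 units in MII, 0.177 in 2-cell embryos and 0.246 in morulae. The mitochondrially encoded RNAs held 2.31% ± 0.321 (SD, n = 4) of the summed FPKM in MII and 10.9% ± 0.724 in morulae, and 8527 ± 112 genes against 9916 ± 62 reached 1 FPKM (exact 2-sided permutation tests, p = 0.0286 for each of 5 such library measures, adjusted p = 0.0286, the smallest p that 4 against 4 libraries can give). MII libraries stand in one deposited table and morula libraries in another, so stage and table cannot be told apart. Smart-seq2 primes cDNA from poly(A) tails and no spike-in was used, so values are relative, and a change in the amount of an RNA, in the length of its tail, or in the total RNA of the cells cannot be told apart.

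Oocyte markers followed the labelled stages, and morula markers did so in part. All 10 oocyte markers were lower in morulae, among them Gdf9 and Bmp15, growth factors that only the oocyte secretes in the ovary, and Mos, the kinase that holds the egg at MII. Of 10 morula markers, 7 were higher, 2 did not pass, and 1, Cdh1 (E-cadherin), was lower. Of these 10, 4 stayed below 1 FPKM in every MII library and could not be called lower. Gata3, which did not pass, was lower under 3 other scalings, at -1.05 to -1.23. By the criteria given below, 44.5% of all tested genes were higher and 33.3% lower. Cumulus cells surround the ovulated egg, and of 17 of their markers 15 stayed below 1 FPKM in every MII library; the list summed to between 12.8 and 15.5 FPKM in MII and between 1.84 and 3.62 in morulae, and Cyp19a1, the aromatase of follicle cells, gave 8.20, 8.34, 8.82 and 10.1 FPKM in the MII libraries. Markers of sperm, blood and feeder or stromal cells summed to at most 3.57 FPKM in any of the 8 libraries. The part of these cells in the results was not tested.

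The transcriptome of the morula differed from that of the egg in most of the genes measured. With limma on log2(FPKM + 1), 10477 of the 11444 genes had an adjusted p below 0.05. Calling a gene at that threshold and at least a 2-fold difference (1 log2 unit), 5088 genes were higher in morulae (44.5%) and 3808 were lower (33.3%), and the 4 MII and 4 morula libraries did not overlap for 8871 of these 8896 genes. Here and below, 2-fold in a call or class means 1 unit of log2(FPKM + 1), which at low levels is more than 2-fold in FPKM. A difference of at least 3 log2 units was found for 1799 higher and 1211 lower genes, and one of at least 5 for 454 and 329. The median difference over all tested genes was 0.52, and it came to 0.29, 0.21 and 0.10 under 3 other scalings, so a single gene with a difference of that size has no direction of its own.

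The 11444 genes were sorted by their level in the egg. There were 4613 maternal RNAs, defined here by a mean of 5 FPKM or more in MII. Of these, 1196 (25.9%) were lost, meaning called lower with a mean below 1 FPKM in morulae, and 1428 (31.0%) were lowered but kept a mean of 1 FPKM or more. Another 776 (16.8%) stayed within 2-fold, the 95% confidence interval of the difference lying between -1 and 1, and 810 (17.6%) were higher in morulae. The remaining 403 (8.7%) were undecided. Outside the maternal RNAs, 1784 genes were embryonic, with an MII mean below 1 FPKM, a call in the higher direction and a morula mean of at least 5 FPKM. The other 5047 genes lay between these definitions, with 2494 higher, 1184 lower and 1369 not called.

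**Figure D1:**
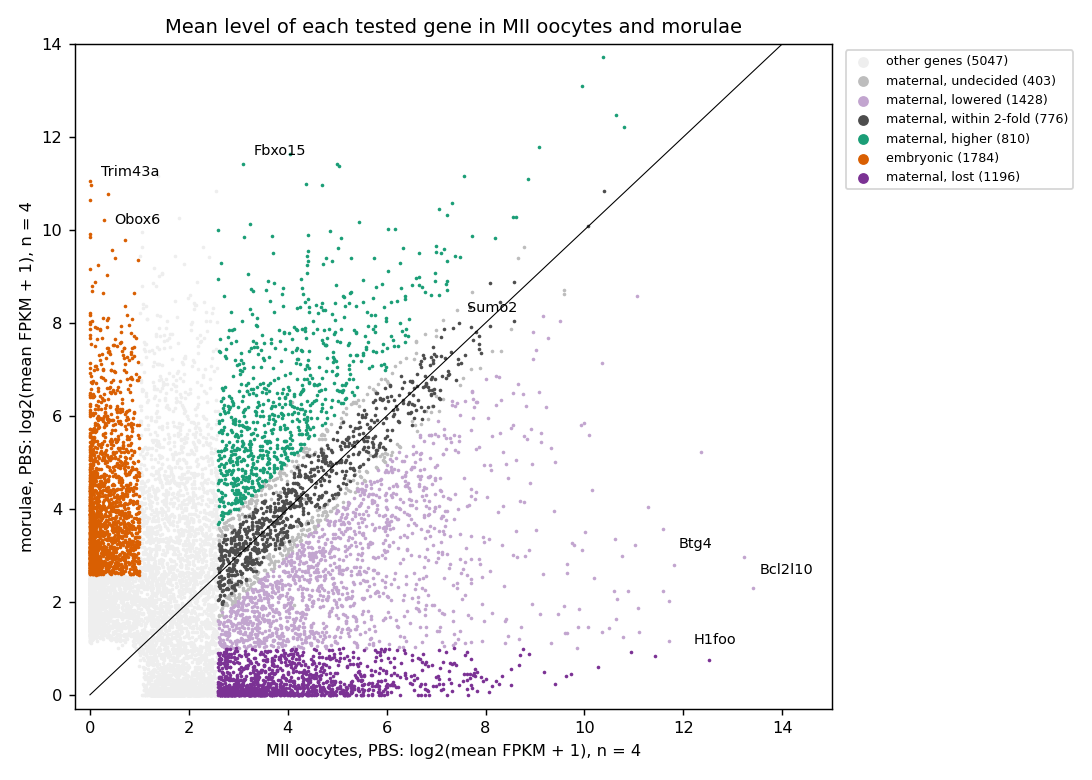
Mean level in MII oocytes (x axis) and in morulae (y axis) of the 11444 tested genes, both as log2(mean FPKM + 1) over 4 PBS libraries, 1 point per gene coloured by class; the line marks equal levels. The 1196 lost RNAs lie along the bottom, the 1784 embryonic RNAs along the left side, and the 776 maternal RNAs within 2-fold along the line.

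Genes of the lost and lowered classes made up most of the egg's RNA. The lost class held 16.3% ± 0.0749 (SD, n = 4) of the summed FPKM in MII, 12.2% ± 0.408 at the 2-cell stage and 0.087% ± 0.00644 in morulae. The lowered class held 57.7% ± 0.0885, 44.6% ± 0.213 and 4.05% ± 0.338. In the other direction, the higher class rose from 8.09% through 16.4% to 46.8%, and the embryonic class from 0.176% through 3.08% to 17.9%. The class within 2-fold held 9.19%, 7.82% and 7.80%. The directions of these shares follow from how the classes were defined, and only the 2-cell values are free of that choice.

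**Figure D2:**
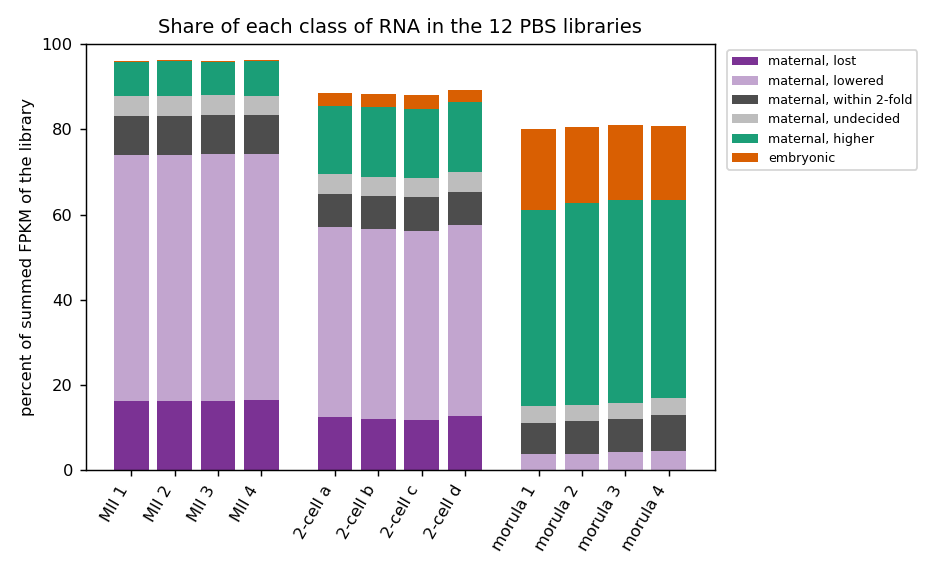
Share of the summed FPKM (y axis, percent) taken by each class of RNA in the 12 PBS libraries, 1 bar per library; the part of a bar not coloured up to 100 belongs to other genes. Lost and lowered RNAs fill about the same share in all 4 MII libraries (16.3 to 16.4% and 57.6 to 57.8%) and 0.0798 to 0.0928% and 3.73 to 4.49% in morulae.

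Among the lost RNAs the most abundant in the egg was H1foo, the linker histone of the oocyte (ENSMUSG00000042279). It gave 5858, 5812, 5859 and 5856 FPKM in the MII libraries and 0.634, 0.580, 0.838 and 0.638 in morulae, a difference of -11.77 ± 0.09 (SE, log2 scale, adjusted p = 2.67e-13). The MII libraries lay within a narrow band and no morula library reached 1 FPKM. At the 2-cell stage H1foo was already down to between 221 and 385 FPKM. Bmp15 (ENSMUSG00000023279) followed another course, with 1677, 1933, 2030 and 2182 FPKM in MII, 1326 to 1797 in 2-cell embryos and 0.823 to 0.987 in morulae. Most of its loss therefore fell after the 2-cell stage, with 2-cell values that overlapped the MII values.

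The other lost RNAs of largest difference divided in the same way. Plat, tissue plasminogen activator, fell from 774 to 901 FPKM in MII to 5.99 to 8.17 in 2-cell embryos, and Astl, the cortical granule protease that cleaves the zona protein ZP2 after fertilization, from 532 to 632 FPKM to 4.38 to 5.61. In both, the 2-cell libraries were far below the MII libraries, and the morulae were below 1 FPKM. Rfpl4 and Tcl1b4 in contrast had 2-cell means of 3818 and 973 FPKM, above their MII means of 2738 and 472, and both had morula means below 1 FPKM. Over the whole class, 827 of the 1196 lost RNAs kept at least 50% of their MII mean at the 2-cell stage and the median kept 84.3%, while 64 were already below 1 FPKM. The homeobox genes Obox1 and Obox2, Oas1e of the oligoadenylate synthetase family, and Fbxw18 completed the 10 of largest difference, each above 300 FPKM in MII on average and below 1 in morulae.

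Bcl2l10, an oocyte member of the Bcl-2 family, had the highest MII mean of the lowered RNAs. It gave 11450, 10940, 10380 and 10550 FPKM in MII and 2.34, 6.09, 6.04 and 1.17 in morulae (difference -11.28 ± 0.34, adjusted p = 2.01e-10), with 8906 to 9817 FPKM at the 2-cell stage. Gdf9 fell from 3202 to 3659 FPKM in MII to 135 to 162 in 2-cell embryos and 0.486 to 1.78 in morulae. Btg4, the adaptor that brings the CCR4-NOT deadenylase to maternal RNAs, stood at 3502 to 3657 FPKM in MII, at 4704 to 5647 in 2-cell embryos and at 5.53 to 6.24 in morulae. The low values of Gdf9 thus began at the 2-cell stage and those of Btg4 only after it. Zbed3, of the subcortical maternal complex, and Tcl1, a cofactor of Akt, were likewise high in 2-cell embryos, with 2-cell means of 14900 and 1989 FPKM against 9574 and 1303 in MII. Ccdc69, Oas1d, Accsl, Tcl1b1 and Txnip were the others of largest difference, with morula means between 1.013 and 3.68 FPKM.

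The lowered class was not all near its floor. Its median went from 29.1 FPKM in MII through 21.3 in 2-cell embryos to 4.20 in morulae, a median difference of -2.12, against -3.48 for the lost class. Ccnb1, cyclin B1, kept 248 to 276 FPKM in morulae from 676 to 802 in MII. Its groups did not overlap, and the difference was -1.46 ± 0.09 (adjusted p = 5.24e-08). In the lost class 72.7% of genes were protein coding and 364 carried only predicted names, while 96.1% of the lowered class coded for protein and 100 carried predicted names; over all tested genes 84.9% coded for protein. Of the lost genes, 33 had no row in the embryo table and were set to 0 there, none of them a gene with a full name.

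Of the 776 maternal RNAs within 2-fold, the 10 with a full name and the highest mean over the 8 libraries are named here. Hsp90aa1, the inducible cytosolic HSP90 (ENSMUSG00000021270), gave 1383, 1403, 1285 and 1328 FPKM in MII and 2230, 1809, 2007 and 1247 in morulae, with a difference of 0.40 ± 0.16; 47.5% of the 50-base words of its transcripts also occur in other genes. Oaz1, the antizyme that limits polyamines, stood at 357 to 407 and 402 to 532 FPKM, and Cdc42, a small GTPase of cell polarity, at 247 to 293 and 447 to 479. Hsp90aa1 and Oaz1 overlapped between the stages and Cdc42 did not, although its 95% interval stayed inside 2-fold. The other 7 were Brix1, Rsl1d1 and Dnttip2 of the nucleolus, the translation factor Eif4a1, the coat protein Sec13, Yipf4 of the Golgi, and the ubiquitin-like modifier Sumo2.

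An equal level at both ends hid different courses. At the 2-cell stage 407 of the 776 genes were within 2-fold of both the MII and the morula mean, 154 were below 50% of both, and 93 were above double of both. Sec13 and Oaz1 were of the first kind, with 2-cell values of 132 to 152 and 378 to 460 FPKM. Hsp90aa1 was of the second kind, with 175 to 237 FPKM in the 4 2-cell libraries, below every MII and every morula library. The cell cycle genes Gmnn (geminin) and Ccna2 (cyclin A2) also stayed within 2-fold, at 63.1 and 67.1 FPKM in MII and 84.3 and 85.1 in morulae.

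A stricter definition picked out maternal RNAs whose measured level was lower at the 2-cell stage than before and after. It asked for an MII mean of at least 5 FPKM, an adjusted p below 0.05 for the single contrast of MII and morula against 2-cell, all 4 2-cell libraries below all 8 others, and both stage means at least 1 log2 unit above the 2-cell mean. Of 13138 genes tested over the 12 libraries, 331 (2.52%) met it: 132 of the class within 2-fold, 79 of the higher class, 68 undecided and 52 lowered. Since 2-cell and morula libraries share a table, the rise from the 2-cell stage does not rest on a comparison across tables. The fall from MII to the 2-cell stage does rest on one. Whether the RNA itself or only its poly(A) tail was lost and regained was not tested.

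Cldn4, a claudin of tight junctions, had the largest contrast (5.70, adjusted p = 1.51e-13). It gave 33.3, 30.1, 30.9 and 22.2 FPKM in MII, 0.281, 0.413, 0.373 and 0.131 at the 2-cell stage, and 145, 126, 165 and 176 in morulae. No 2-cell library reached 1 FPKM, and every morula library was above every MII library. Sumo2 gave 170 to 182, 8.13 to 15.8 and 132 to 325 FPKM, and Dnttip2, a nucleolar protein, 199 to 217, 10.4 to 16.9 and 210 to 291. In both, egg and morula libraries overlapped and every 2-cell library lay far below them. Grn (progranulin), Cers2 (a ceramide synthase), Mtx2 of the mitochondrial outer membrane and Tmem59 stood above their egg level in morulae. Their morula means were 101, 192, 62.4 and 1238 FPKM against 34.5, 81.9, 20.0 and 376 in MII. For Cers2 the difference from the egg was 1.20, and 0.75 to 0.93 under the 3 other scalings, where it missed the 2-fold criterion. Leprot, March7 and Saraf rose from the 2-cell stage but stayed below their egg level, at 7.95, 33.2 and 51.1 FPKM against 193, 117 and 209.

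Adhesion genes were among those that dipped. Cdh1, which mediates compaction, gave 80, 65.4, 68.7 and 55.3 FPKM in MII, 4.87 to 7.44 in 2-cell embryos and 21.4, 33.4, 23.2 and 33.0 in morulae. It was thus called lower in morulae than in eggs (-1.26 ± 0.17, adjusted p = 3.89e-05), while all morula libraries were above all 2-cell libraries. Its partners Ctnna1 and Ctnnb1, the α- and β-catenins, dipped as well, from means of 79.9 and 27.2 FPKM through 28.9 and 5.24 to 80.6 and 17.1. The same held for Sall4, a pluripotency factor, at 233.5, 44.7 and 173 FPKM and for Cdc20, the activator of the anaphase-promoting complex, at 210, 67.5 and 929. Only maternal RNAs can meet the definition, and 331 of all 4613 did. By list, 4 of 9 maternal genes of compaction, polarity and junctions dipped, and 2 of 5 of the trophectoderm. The counts were 2 of 4 for sodium pump and aquaporins, 6 of 16 for the splicing core and 3 of 5 for lysosome and endocytosis. They were 5 of 18 for ribosome biogenesis, 3 of 21 for the proteasome and 2 of 22 for replication licensing and DNA synthesis. The nuclear respiratory chain had 1 of 17, MII arrest 1 of 14, pluripotency 1 of 4 and the small RNA pathway 1 of 6. None of the 14 maternal ribosomal protein genes and none of the 6 maternal CCT genes dipped. The rest of the 77 and 8 tested genes could not meet the definition.

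**Figure D3:**
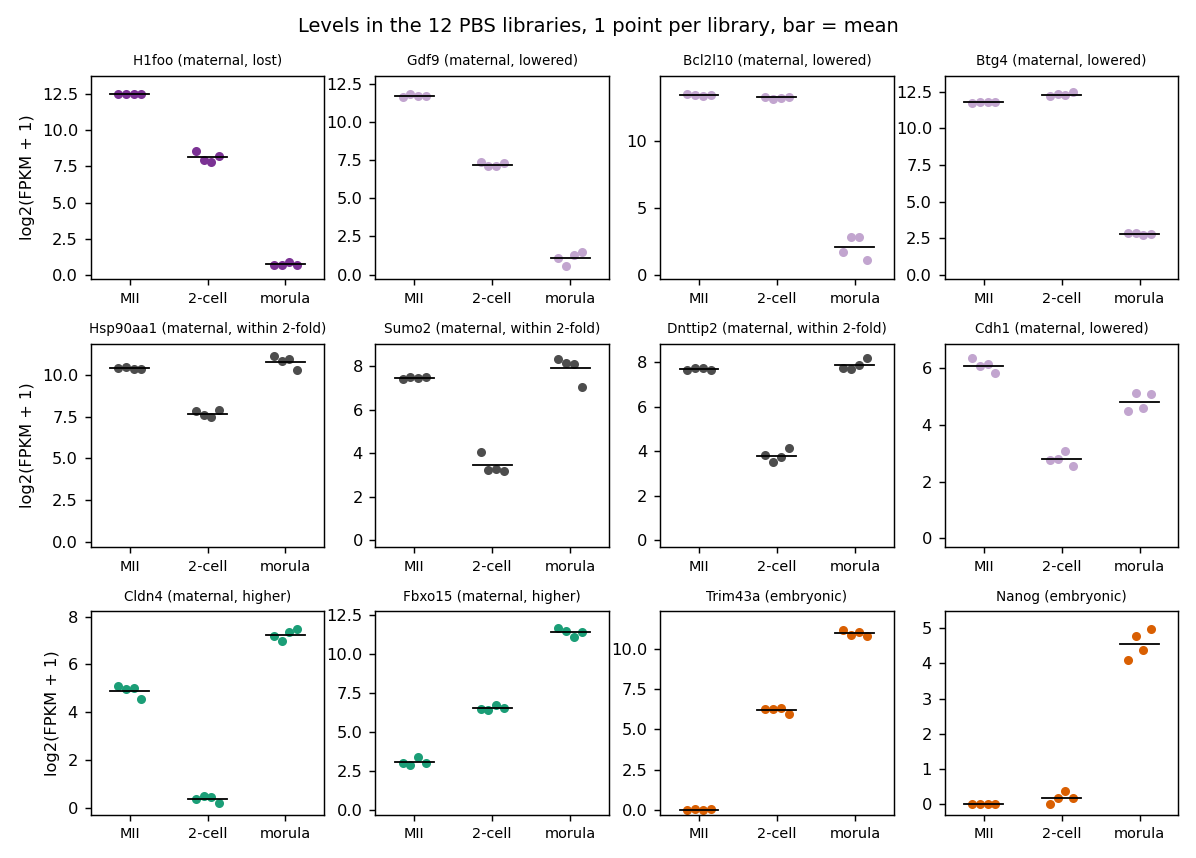
Level of 12 genes as log2(FPKM + 1) (y axis) in the PBS libraries of MII oocytes, 2-cell embryos and morulae (x axis), 1 point per library with a bar at the mean, coloured by class. H1foo and Gdf9 fall by the 2-cell stage and Bcl2l10 and Btg4 only after it, Hsp90aa1, Sumo2, Dnttip2, Cdh1 and Cldn4 are lowest in 2-cell embryos, and Fbxo15, Trim43a and Nanog are highest in morulae.

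Among maternal RNAs that were higher in the morula, Fbxo15, an F-box gene known as a target of Oct4, went from 7.24, 6.58, 9.41 and 7.11 FPKM in MII to 3299, 2800, 2169 and 2693 in morulae (8.31 ± 0.15, adjusted p = 1.06e-11). The groups lay far apart, and the 2-cell libraries were between them at 85.0 to 107 FPKM. Isyna1, which makes inositol phosphate from glucose phosphate, had not yet risen at the 2-cell stage, with 3.36 to 5.49 FPKM against 4.46 to 5.99 in MII and 946 to 1148 in morulae. The translation genes Rps3a1, Rpl4, Rplp0, Eef1a1 and Eif3g, the ubiquitin ligase subunit Rnf7, the autophagy protein Gabarapl2 and the purine salvage enzyme Aprt were the others of largest difference. In these 8 the MII means were 5.06 to 31.7 FPKM and the morula means 493 to 3163. Of the 50-base words of their transcripts, 71.0% for Rps3a1, 39.4% for Eef1a1, 33.1% for Rplp0 and 27.4% for Rnf7 also occur in other annotated genes, so their levels depend on how reads with several matches were counted. Within the class 717 of 810 genes were at or above 50% of their MII level at the 2-cell stage and the median stood at 153% of it.

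Of the embryonic RNAs with a full name, Trim43a and Trim43b had the largest differences. Trim43a gave 0, 0.0532, 0 and 0.0269 FPKM in MII, 60.1 to 79.7 in 2-cell embryos and 2292, 1806, 2069 and 1795 in morulae (10.92 ± 0.11, adjusted p = 9.31e-13), and Trim43b was listed at 0 in all 4 MII libraries and at 1518 to 1818 FPKM in morulae. These genes are close copies that share 45.8% and 47.7% of their words with other genes. Gcsh of the glycine cleavage system, the homeobox gene Obox6, the sorbitol dehydrogenase Sord, the lysosomal protease Ctsc, the alkaline phosphatase Alppl2 and the tetraspanin Cd63 reached morula means of 607 to 1749 FPKM from at most 0.642 in MII. The autophagy receptor Calcoco2 and the ferritin receptor Timd2 had no row in the oocyte table, which counts as 0, and reached 959.7 and 572.5 FPKM. In all, 167 of the 1784 embryonic genes had no row in the oocyte table. At the 2-cell stage 1078 of the 1784 (60.4%) were at 1 FPKM or more and 330 at 5 or more, and 50 were above double their morula mean.

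Members of the Obox homeobox family moved in opposite directions. Obox1, Obox2 and Obox5 fell from MII means of 308, 363 and 1073 FPKM to 0.172, 0.154 and 1.74 in morulae, and Obox6 went from 0.226 to 1192. Obox1 and Obox2 share 57.4% and 65.1% of their words with other genes, and Obox6 shares 5.0%.

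A change of the more abundant member was looked at in 32 pairs of paralogues. Some set an oocyte form beside a general form of a protein, and others, such as Actb and Actg1 or Tubb4b and Tubb5, did not. In 25 of them the summed level was 5 FPKM or more in both stages, and in 14 of these the more abundant member changed, with 1 member above 50% of the sum in every MII library and below it in every morula library or the reverse. The poly(A)-binding proteins Pabpc1l and Pabpc1 were one such pair. Pabpc1l took 98.6 to 99.01% of the sum in MII and 0.339 to 0.933% in morulae, with mean levels of 32.5 and 0.212 FPKM for Pabpc1l and 0.380 and 28.8 for Pabpc1. The exchange had not happened at the 2-cell stage, where Pabpc1l still held 95.7%.

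The more abundant member also changed in these pairs. The connexin Gja4 of the oocyte surface gave way to Gja1, its share going from 99.4% to 1.11%. The kinase Wee2 that restrains the egg's Cdk1 gave way to Wee1 (99.8% to 10.5%), and the dioxygenase Tet3 of the zygote to Tet1 (99.4% to 5.01%). The histone chaperone Npm2 gave way to Npm1 (80.8% to 2.24%) and the importin Kpna7 to Kpna2 (62.4% to 0.0368%); 62.6% of the words of Kpna2 occur in other genes. Kpna7 was already the minor member at the 2-cell stage, at 39.4 to 44.7% of the sum, as was Cpeb1 against Cpeb4 at 33.6 to 40.5%. Members of the pairs did not always rise. Fbxo5 stayed at 108 and 115 FPKM while Fbxo43 fell from 226 to 0.402, and Cpeb1 fell from 209 to 2.14 FPKM while Cpeb4 went from 13.0 to 6.40, a difference of -0.99 that missed the 2-fold criterion but met it under the 3 other scalings, at -1.23 to -1.43. Taf4b, the gonadal form of a TFIID subunit, went against the pattern, from 16.4% of the Taf4b and Taf4 sum in MII to 73.8% in morulae. In other pairs the first gene was already the minor member in MII. Ybx2 held 15.2% beside Ybx1, Eif4e1b 7.94% beside Eif4e and Aurkc 24.5% beside Aurkb, where 54.8% of the words of Aurkc occur in other genes. Over the 25 pairs, 10 had the first member lower and the second higher, where 33.3% of all tested genes were lower and 44.5% higher. The pairs were chosen with earlier results of these data known, so the counts over pairs are a description only.

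**Figure D4:**
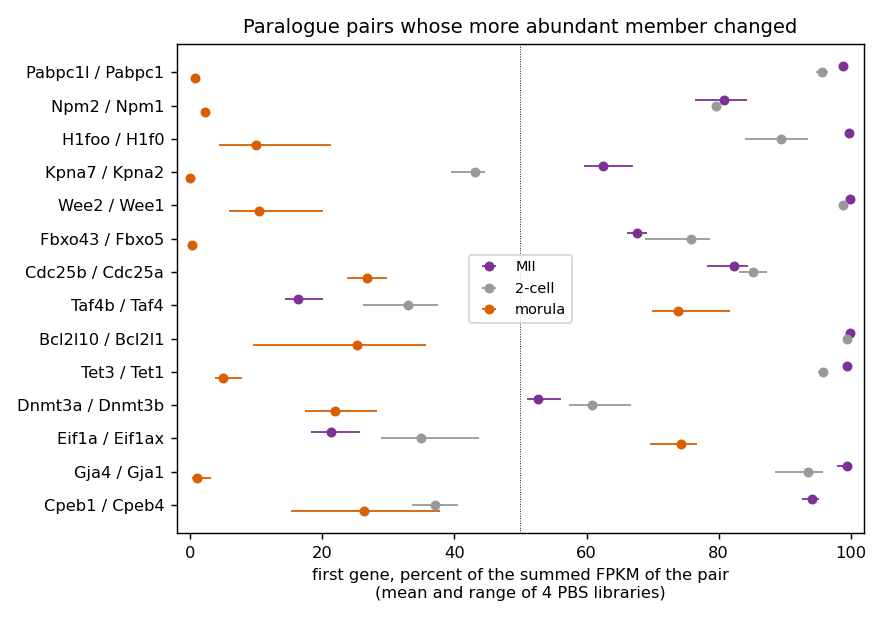
Share of the first gene in the summed FPKM of its paralogue pair (x axis, percent) for the 14 pairs (y axis) whose more abundant member changed; points are means and bars the range of 4 PBS libraries of each stage. In 12 pairs the first gene moves from above 50% in MII to below it in morulae, and in Taf4b / Taf4 and Eif1a / Eif1ax from below to above.

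Lists of genes of known function were read against the background of 44.5% higher and 33.3% lower among all tested genes. The lists and their members were chosen with earlier results of these data known, so the counts over lists are a description only. Most tested members of the egg-specific groups were lower in morulae. Of the oocyte-secreted factors 6 of 9 were lower and 2 higher, and of the oocyte transcription factors 7 of 9 were lower and 2 higher. All 8 tested oocyte Nlrp genes outside the subcortical maternal complex were lower, and all 6 of the Tcl1 family, with medians of -6.22 and -8.39. In the subcortical maternal complex, which the early embryo needs for its first divisions, 8 of 9 were lower, the exception being Khdc3 (0.434 FPKM in MII and 12.05 in morulae). Since 34.1% of the words of Khdc3 occur in other genes, its level depends on how reads with several matches were counted. Of the zona pellucida and sperm-binding genes 6 of 7 were lower and Cd9, the tetraspanin of sperm fusion, was higher, at 18.8 to 40.8 FPKM in MII and 934 to 1150 in morulae. Zp3, the zona protein, kept 25.7 to 43.1 FPKM in morulae from 393 to 894 in MII. Factors of maternal RNA storage and translation were lower in 13 of 15, among them Zar1 (122 to 0.138 FPKM) and Dazl (570 to 5.02), and 2 were higher, among them the helicase Ddx6; the difference of Ddx6 was 1.29, and 0.98 and 0.85 under 2 other scalings, short of 2-fold.

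Groups that serve the egg's cell cycle and its decay programme were mixed. Of 16 genes of the MII arrest 12 were lower and 2 higher. Mos fell from 236 to 278 FPKM in MII to 1.07 to 1.85 in 2-cell embryos and at most 0.601 in morulae, whereas Cdk1 and Cdc20 were higher. Of 16 genes of maternal RNA decay 7 were lower and 6 higher. Btg4, the decapping cofactor Dcp1a and Pabpn1l were lower, the deadenylase subunit Cnot7 kept 12.7 to 21.5 FPKM from 103 to 114, and Ythdf2, the exosome nuclease Dis3 and Tut4 were higher. For the genes of DNA methylation the median was 0.01, with Dnmt1 (141 to 2.33 FPKM), Uhrf1 and Tet3 lower and Tet1 higher; other scalings put this median at -0.20 to -0.43.

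The machinery of translation, proteolysis and respiration stood higher in morulae. Of 80 cytosolic ribosomal protein genes 77 were tested and 77 were higher, with a median difference of 5.09. Of the 80, 47 stayed below 1 FPKM in every MII library and, where tested, could not be called lower. The 14 with an MII mean of 5 FPKM or more could go either way, and all 14 were higher. The summed share of the whole list was 0.146% ± 0.0101 of all FPKM in MII, 0.422% ± 0.0396 at the 2-cell stage and 6.29% ± 0.629 in morulae. Many of these genes have copies elsewhere in the genome, and how the authors counted reads that match several places is not given, so single levels are uncertain. All 8 CCT chaperonin subunits, 30 of 32 proteasome subunits, 35 of 40 genes of ribosome biogenesis, 17 of 19 of lysosome and endocytosis and 66 of 70 nuclear genes of the respiratory chain were higher. Below 1 FPKM in every MII library were 0 of 8, 5 of 32, 10 of 40, 10 of 20 and 28 of 71 listed genes. Within the proteasome, Psmd1 (55.03 and 59.4 FPKM) and Psma2 (85.1 and 75.8) stayed within 2-fold and both dipped at the 2-cell stage, to 9.90 and 24.8.

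Metabolic groups held genes that moved in both directions. Ldhb, lactate dehydrogenase B, fell from 1318 to 1721 FPKM in MII through 535 to 801 in 2-cell embryos to 8.39 to 10.9 in morulae (-7.26 ± 0.12, adjusted p = 7.81e-12). Its groups were far apart, but Ldhb still made up 63.7% of the sum of Ldhb and Ldha in morulae. In the glycolysis list 12 of 16 genes were higher, such as the glucose transporter Slc2a1 (7.83 to 26.96 FPKM) and Pgam1 (4.96 to 129.6). Cholesterol synthesis had 9 of 16 higher and 6 lower, with Insig1 (272 to 29.9 FPKM) lower and Fdft1 (9.43 to 177) higher. Antioxidant genes had 15 of 22 higher and 5 lower: Prdx1, Prdx2, Gpx3, Gstm5 and Txnrd1 were lower, while Prdx6 (3.13 to 252 FPKM) and Gpx4 (0.520 to 106.5) were higher. Of the 50-base words of Pgam1 and Gpx4, 36.2% and 34.7% occur in other genes, so their levels are uncertain in the same way. Below 1 FPKM in every MII library were 7 of 19 listed genes of glycolysis, 11 of 22 of cholesterol synthesis and 9 of 24 antioxidant genes. Where tested, these could not be called lower.

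Of 18 tested genes of pluripotency and the inner cell mass 16 were higher in morulae, none was lower, and Sall4 and Spp1 did not pass. Of the 18, 9 met the definition of embryonic. Of the 20 listed, 11 stayed below 1 FPKM in every MII library and, where tested, could not be called lower. Of 11 tested trophectoderm genes 6 were higher and 1 lower, and of 4 primitive endoderm genes 1 was higher and 1 lower. Under the 3 other scalings 5 trophectoderm genes were higher and 2 lower. Below 1 FPKM in every MII library were 8 of 16 listed trophectoderm and 6 of 9 listed primitive endoderm genes. Where tested, these could not be called lower either. Pou5f1 (Oct4), a core pluripotency factor, gave 3.95 to 6.92 FPKM in MII and 17.2 to 31.6 in morulae. Nanog had no row in the oocyte table and gave 16.1, 26.4, 19.7 and 30.2 FPKM in morulae. Tead4, the partner of Yap1 in the outer cells, went from at most 0.0147 to between 40.4 and 54.6 FPKM, and Yap1 itself was lower (17.7 to 5.49). Of the junction genes 12 of 22 were higher and 5 lower, with the adhesion molecule F11r among the higher ones at 167 FPKM in morulae. Median-of-ratios scaling and quantile normalization put 7 of them lower. Of 26 listed junction genes, 12 stayed below 1 FPKM in every MII library and, where tested, could not be called lower. Of 18 listed genes of the first transcription wave of the 2-cell embryo only 9 were tested, 6 of them higher than in the egg and 2 lower. Of the 18, 14 were below 1 FPKM in every MII library, so those still low in morulae were left out by the filter. These counts do not tell how the wave as a whole ended. Of the 18, 7 were below 1 FPKM in every morula library and 1 in every 2-cell library, and high 2-cell levels had often gone. Zfp352 stood at 0 in MII, 392 to 501 FPKM in 2-cell embryos and 2.96 to 15.1 in morulae, and Tcstv3 at 21.5, 246 and 2.74 on average.

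**Figure D5:**
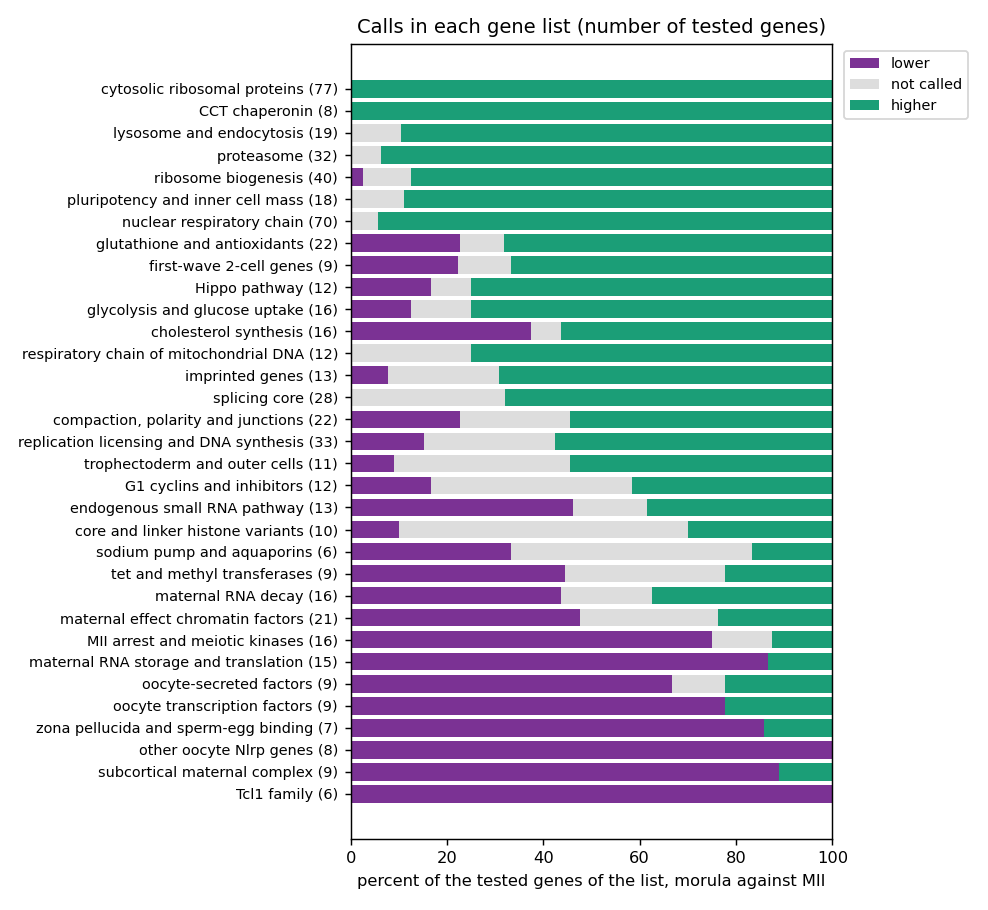
Percent of the tested genes of each list (x axis) called lower, not called or called higher in PBS morulae against PBS MII oocytes, with the number of tested genes in brackets and lists in order of their median difference. Tcl1 and Nlrp genes are lower in 6 of 6 and 8 of 8, and ribosomal protein and CCT genes higher in 77 of 77 and 8 of 8.

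Promoter composition is given by class, as a description. For protein-coding genes, a RefSeq promoter (GRCm38.p6, 250 bases before to 50 after the start) was matched for 81.5% of lost, 85.9% of lowered, 81.9% of within 2-fold and 85.4% of higher genes. An observed over expected CpG ratio above 0.6, a usual mark of CpG-island promoters, was found in 48.5% of 687 lost, 78.6% of 1147 lowered, 85.5% of 579 within 2-fold and 89.0% of 609 higher genes, against 74.3% of 7826 tested genes and 36.4% of all 27025 promoters of the table. Of the embryonic and dipping genes fewer than 80% were matched, and no value is given for them. The motif TATAAA, searched on both strands with matches allowed to overlap, was in 10.5% of lost, 4.7% of lowered, 6.4% of within 2-fold and 7.6% of higher promoters, against 7.0% of tested genes and 14.2% of the table. TAATTG was in 6.6%, 4.9%, 3.1% and 4.8%, against 4.9% and 8.2%. The other 2 motifs searched varied less in proportion. GGAATG was in 12.4%, 9.3%, 9.5% and 9.9%, against 11.3% and 14.6%, and TCAAGG in 11.2%, 12.4%, 11.9% and 10.7%, against 11.9% and 14.5%. A match is a description of letters and not a site of binding. To show the contrast, the 250 bases before the start are printed 5′ to 3′ on the gene's strand for the lost gene Bmp15, the lowered gene Btg4, which unlike most of its class is poor in CpG, the within 2-fold gene Sumo2 and the higher gene Rplp0, with each CpG in capitals.
Bmp15 (chrX:6320725-6320974, minus strand, 2 CpG): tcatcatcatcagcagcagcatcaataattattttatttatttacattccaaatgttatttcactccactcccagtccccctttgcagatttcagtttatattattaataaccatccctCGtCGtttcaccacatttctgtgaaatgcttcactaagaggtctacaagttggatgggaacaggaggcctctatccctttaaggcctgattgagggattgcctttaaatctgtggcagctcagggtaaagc
Btg4 (chr9:51115751-51116000, plus strand, 1 CpG): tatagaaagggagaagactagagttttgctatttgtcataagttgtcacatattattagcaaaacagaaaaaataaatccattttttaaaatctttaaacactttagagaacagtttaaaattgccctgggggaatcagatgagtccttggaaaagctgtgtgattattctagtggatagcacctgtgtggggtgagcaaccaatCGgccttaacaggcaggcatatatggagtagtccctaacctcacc
Sumo2 (chr11:115536231-115536480, minus strand, 37 CpG): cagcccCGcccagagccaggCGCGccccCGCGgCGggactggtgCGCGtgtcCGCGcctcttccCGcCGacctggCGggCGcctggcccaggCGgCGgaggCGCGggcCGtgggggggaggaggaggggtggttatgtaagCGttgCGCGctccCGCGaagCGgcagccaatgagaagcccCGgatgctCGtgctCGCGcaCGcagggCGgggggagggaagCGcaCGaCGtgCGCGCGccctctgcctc
Rplp0 (chr5:115559217-115559466, plus strand, 19 CpG): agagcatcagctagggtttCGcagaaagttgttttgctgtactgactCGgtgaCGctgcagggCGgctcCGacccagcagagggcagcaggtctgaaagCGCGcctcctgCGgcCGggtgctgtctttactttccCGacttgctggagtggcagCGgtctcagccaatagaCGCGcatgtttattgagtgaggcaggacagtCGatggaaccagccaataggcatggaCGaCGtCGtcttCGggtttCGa
The 4 genes were chosen from the named genes after the sequences had been seen. GC content of the printed bases was 40.4% for Bmp15, 38.0% for Btg4, 77.2% for Sumo2 and 58% for Rplp0.

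The same stages were compared in the libraries cultured with VCD, which share no sample with those above. Over the same 11444 genes, 5 MII and 4 morula libraries with VCD gave 4991 genes higher in morulae (43.6%) and 3809 lower (33.3%). Of the genes called with PBS, 96.1% of the higher and 96.8% of the lower ones were called in the same direction with VCD, and 0 were called in the opposite one. The class recurred for 90.9% of lost, 92.9% of lowered, 78.5% of within 2-fold, 91.7% of higher and 90.8% of embryonic RNAs. Of the 331 RNAs that dipped with PBS, 318 had all 2-cell libraries with VCD below all their MII and morula libraries. This order was found in 748 (5.7%) of the 13138 genes tested there. The 331 are all maternal RNAs and the 13138 are not, so that share is not of a like set. The share among maternal RNAs was not computed. The difference between the agents in the change from egg to morula passed for 1 of 11444 genes, the small predicted gene Gm25332, and 393 had an unadjusted p below 0.05 (limma, interaction term).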

How the data were processed

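Values were FPKM, deposited by the authors in one table of MII oocytes and one of embryos. Bowtie2 2.2.3 and TopHat2 2.0.12 are named in the submitters' processing notes, which list galGal4, a chicken build, although the gene identifiers are those of mouse; no source used here names the counting tool or annotation. Tables were joined on the Ensembl identifier, and a gene without a row was set to 0. limma 3.58.1 in R 4.3.3 was fitted with a trended prior to log2(FPKM + 1), with Benjamini-Hochberg adjustment over all tested genes, and was tested on simulated data. Of FPKM values worth fewer than 200 reads, 90.8 to 93.3% in the 8 libraries were whole reads within 0.01. Promoters were looked up for protein-coding genes outside chromosome 18 and the mitochondrial genome. Members and lists were chosen with earlier results of these data known. Named are members of the pairs and marker lists, the 10 genes of largest difference in each class (within 2-fold: highest mean; dip: largest contrast), leaving out predicted names, and in each list the 2 genes of smallest p and those needed to describe it; other genes were chosen after their values were seen. Alternatives covered pseudocount, filter, scaling, replicate block and left-out libraries.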

Additional observations from a re-analysis of the deposited data

Results flagged for a closer look

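Among the 127 genes printed above, 381 groups of 4 PBS libraries were looked at, and in 23 of them 1 library stood apart from the other 3 by Dixon's criterion, where chance gives about 1 in 20. Morula PBS replicate 4 was the library set apart most often, for 5 genes. In 2-cell PBS replicate a these were Sumo2 (15.81 FPKM against 8.129 to 8.876 in the others). In 2-cell PBS replicate b these were Sec13 (131.6 FPKM against 151.3 to 152.4 in the others). In 2-cell PBS replicate c these were Fbxo5 (67.39 FPKM against 38.94 to 41.48 in the others), Wee1 (8.112 FPKM against 6.239 to 6.254 in the others), Ythdf2 (35.4 FPKM against 30.26 to 31.06 in the others). In 2-cell PBS replicate d these were Gpx3 (56.61 FPKM against 76.35 to 78.38 in the others), Pabpc1 (1.47 FPKM against 1.844 to 1.902 in the others). In MII PBS replicate 1 these were Pgam1 (5.508 FPKM against 4.75 to 4.811 in the others). In MII PBS replicate 2 these were H1foo (5812 FPKM against 5856 to 5859 in the others), Tead4 (0.01466 FPKM against 0 in the others). In MII PBS replicate 3 these were Pabpc1l (42.42 FPKM against 28.72 to 29.71 in the others). In MII PBS replicate 4 these were Fbxo43 (206.1 FPKM against 230.4 to 234.4 in the others), Gja1 (0.3699 FPKM against 0.01124 to 0.06345 in the others), Gja4 (17.44 FPKM against 28.96 to 29.93 in the others). In morula PBS replicate 1 these were F11r (124.9 FPKM against 177.8 to 183.1 in the others), Trim43b (1818 FPKM against 1518 to 1535 in the others). In morula PBS replicate 2 these were Zp3 (43.08 FPKM against 25.66 to 28.03 in the others). In morula PBS replicate 3 these were Cyp19a1 (0.02343 FPKM against 0 in the others). In morula PBS replicate 4 these were Ctsc (707.2 FPKM against 570.3 to 579.3 in the others), Eif3g (408.1 FPKM against 509.1 to 529.5 in the others), Gabarapl2 (563.4 FPKM against 1007 to 1062 in the others), Gcsh (1421 FPKM against 1832 to 1903 in the others), Tut4 (5.682 FPKM against 7.699 to 7.993 in the others).

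The change from egg to morula differed between the agents for Gm25332. It had a mean of 10.3 FPKM in MII with PBS and was listed at 0 in the 4 morula libraries with PBS, against 8.91 and 4.29 FPKM with VCD, a difference of 2.64 log2 units between the changes (limma, adjusted p = 5e-05).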

How the results depend on the processing

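All main counts stayed within 1.5 times of their value under each alternative apart from these. A filter at 5 FPKM, which tests 6905 genes, gave 3232 higher and 2445 lower genes, and 5544 calls that recurred with VCD (97.7% of the PBS calls). Calls without a minimum difference left 415 maternal RNAs within 2-fold and 624 that dipped, and quantile normalization gave 506 that dipped, of which 327 were among the 331; the cause was not tested. The range over all alternatives was 1055 to 1493 for lost, 1390 to 1835 for lowered, 713 to 1140 for higher and 1386 to 1801 for embryonic RNAs. Of 3480 refits of 206 named genes, 14 lost and 22 gained the call and 0 reversed. The groups share replicate numbers in the labels, but same-numbered libraries deviated together by r of only 0.008 to 0.033, so the numbers were not taken to pair them; a replicate block gave 5089 higher and 3808 lower genes. The median difference moved from 0.52 to 0.29 after scaling to equal sums, 0.21 with median-of-ratios scaling and 0.10 with quantile normalization, and 57.2% of calls were higher against 54.0%, 52.9% and 51%. At 0.0476 to 0.0592 FPKM for 1 read per kb, RNAs listed at 0 may lie below detection.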
